A study of Mus musculus with 6 samples.

Results

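The genes described here are 10 genes of smooth muscle, chosen by symbol from the 25701 genes of a table of normalized counts. They are the contractile and cytoskeletal genes Tagln, Acta2, Actg2, Cnn1, Cnn2, Myl9, Cald1 and Smtn, the coactivator gene Myocd and the transcriptional regulator gene Prdm6. PolyA RNA was sequenced from CP cells, the cardiac progenitor stage of mouse ESCs differentiated towards cardiomyocytes. There were 3 libraries labelled Zhx1-KO, from 46C ESCs in which the zinc finger and homeobox gene Zhx1 had been targeted with CRISPR/Cas9, and 3 libraries of 46C-Ctrl, from 46C ESCs with the genotype control. The 46C line, which carries a green fluorescent reporter of Sox1, and the stage were common to both groups. Both went through the same differentiation, in serum-free medium with ascorbic acid. BMP4, Activin A and VEGF were given in an early step, and VEGF, FGF10 and bFGF after the cells were replated. How many knockout clones lie behind the libraries was not given in the sources used here. The study's methods describe its data in general as coming from independent experiments, and no label says this of these libraries, so the spread that p-values measure may in part be technical.

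Smooth muscle cells contract by sliding actin against myosin, and the genes for their contractile proteins are switched on together during differentiation. Most of these genes carry CArG boxes, short A/T-rich elements bound by the serum response factor SRF, and myocardin, the product of Myocd, is a coactivator that joins SRF there. Many of them are also expressed for a time in the early embryonic heart, so Tagln or Acta2 RNA alone does not identify a smooth muscle cell. Prdm6 encodes a PR domain protein that is known in mouse vascular smooth muscle as a repressor of contractile genes.

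The libraries held between 13769967 and 15940874 whole reads over genes. 46C-Ctrl 2 differed more from its replicates than any other library did, with a chi-square per gene of 17.1 and 18.4 beside 5.84 to 8.18 for all other pairs within a group. Mitochondrial RNA made up 2.77% of it and 1.72% to 1.87% of each other library. Zhx1 itself had 225, 325 and 308 normalized counts in the libraries labelled Zhx1-KO and 460, 181 and 457 in 46C-Ctrl, with a log2 fold change of -0.25 (SE 0.35, adjusted p = 0.579 from limma). Without 46C-Ctrl 2, the lowest of the 6 libraries for Zhx1, it was -0.70 (adjusted p = 0.0113), and with any other library left out it lay between -0.35 and -0.03 (adjusted p from 0.523 to 0.958). Reads from exons outside a deletion can still count towards a gene, so these values do not settle the labels. The paper reports that its knockout ESCs were checked by PCR of the gene and at the mRNA and protein level. Of 8 markers of cardiac progenitors, 7 were lower and 0 higher in the libraries labelled Zhx1-KO by limma, edgeR and DESeq2, none with a log2 fold change above 0 (median log2 fold change -3.30), with Hand1 at 198 ± 28.1 against 5774 ± 329 normalized counts in 46C-Ctrl (SD, n = 3 each). In bulk libraries like these, fewer cells of a type and less RNA per cell cannot be told apart.

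In the libraries labelled Zhx1-KO, Tagln, Acta2, Cnn1, Cnn2 and Prdm6 were lower, by between 2.21-fold for Cnn2 and 51.4-fold for Prdm6. Myocd was lower by 1.24-fold, a call that most other settings did not keep. Smtn was higher, and Myl9 and Cald1 had nearly the same values in both groups. Actg2 was listed at 0 in 4 of the 6 libraries. Genes were tested with limma on log2(normalized count + 1) and called at an adjusted p under 0.05 over all 15372 genes whose mean reached 10. Every log2 fold change here is on that scale. The added 1 shrinks the change of low genes, while a single library at 0 can enlarge it. Of the 10 genes, 9 passed this filter, 6 were called lower, 1 was called higher and 2 did not pass the test. Over all genes tested 52.0% were called, 25.6% higher and 26.4% lower, and the median log2 fold change was 0.01, against -1.14 for the 9 genes. The values of the groups did not overlap for 7 of the 9, with the libraries labelled Zhx1-KO below in 6 and above in 1. Of all genes tested 60.8% did not overlap, 30.4% below and 30.4% above. The smallest p that an exact permutation test can give with 3 libraries against 3 is 0.1, which those 7 genes reached.

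**Figure D1:**
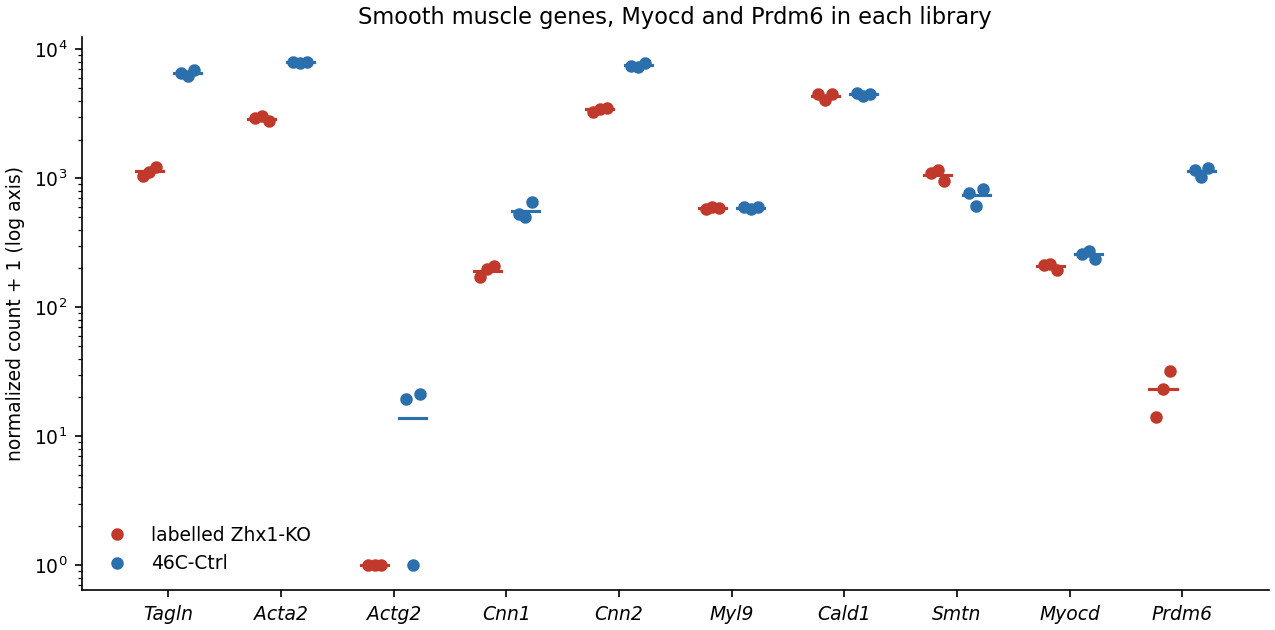
Normalized count + 1 (log axis) of the 10 genes in each library, with the 3 libraries labelled Zhx1-KO (red) left of the 3 of 46C-Ctrl (blue) and a line at each group's mean. Prdm6 lies between 13.1 and 30.8 in the libraries labelled Zhx1-KO and between 1031 and 1197 in 46C-Ctrl, while the points of Myl9 and of Cald1 overlap between the groups.

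Tagln encodes transgelin (SM22α), an actin-associated protein of the calponin family and an early marker of smooth muscle differentiation. It lies on chromosome 9 of GRCm38, from 45929619 to 45936058 on the minus strand. Tagln had 1048, 1125 and 1222 normalized counts in the libraries labelled Zhx1-KO and 6542, 6272 and 6982 in 46C-Ctrl. The highest library labelled Zhx1-KO was thus well under the lowest of 46C-Ctrl. The means were 1131 ± 87.0 and 6599 ± 358 (SD, n = 3 each), 5.83-fold lower in the libraries labelled Zhx1-KO, with a log2 fold change of -2.54 (SE 0.07, adjusted p = 3.64e-07 from limma). Among the 15372 genes tested, the log2 fold change of Tagln ranked 285 from the lowest. The exons of Tagln overlap those of 2 genes on the other strand, by 1241 bases for Gm48529 and by 108 bases for Pcsk7. The study's methods give a stranded setting for its mapping and for its own expression estimates. The program behind the gene counts, and with it their strand setting, was not given in the sources used here. Gm48529 had 22.2, 13.2 and 22.0 normalized counts in the libraries labelled Zhx1-KO and 84.8, 76.6 and 80.2 in 46C-Ctrl, far below Tagln in every library.

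Acta2, which encodes smooth muscle α-actin, had 2928, 3029 and 2762 normalized counts in the libraries labelled Zhx1-KO and 8001, 7866 and 7918 in 46C-Ctrl. The gene lies on chromosome 19, from 34241090 to 34255590 on the minus strand. The groups were far apart and the replicates close together, with means of 2906 ± 135 in the libraries labelled Zhx1-KO and 7928 ± 68.1 in 46C-Ctrl (SD, n = 3 each). The log2 fold change was -1.45 (SE 0.05, adjusted p = 7.93e-07 from limma). Its 95% interval, from -1.56 to -1.34, did not overlap that of Tagln, from -2.71 to -2.38. Actins are close in coding sequence, but of 1986 stretches of 50 bases in the Acta2 transcript only 7 (0.352%) occurred in a transcript of another gene, all 7 in the pseudogene Actg-ps1.

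Actg2, which encodes the γ-actin of enteric smooth muscle, had 0, 0 and 0 normalized counts in the libraries labelled Zhx1-KO and 18.5, 0 and 20.04 in 46C-Ctrl, which are 19, 0 and 19 reads. It is located on chromosome 6, from 83512905 to 83536265 on the minus strand. Because 46C-Ctrl 2 was also listed at 0, the groups overlapped. Actg2 did not pass the filter on low values, and without a filter limma gave it a log2 fold change of -2.89 (adjusted p = 0.0734). A listed 0 may be a failed estimate in these values, but this was not tested. In each library, between 44 and 80 genes were at 0 there alone while the group's other libraries had 10 or more. The 80 were in 46C-Ctrl 2. None of the 1284 stretches of 50 bases in the Actg2 transcript occurred in a transcript of another gene.

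Cnn1 and Cnn2 encode calponins, which bind actin and slow its interaction with myosin, Cnn1 mainly in smooth muscle and Cnn2 also in many non-muscle cells. Cnn1 (chromosome 9, from 22099216 to 22109630, plus strand) had 170, 196 and 206 normalized counts in the libraries labelled Zhx1-KO and 524, 499 and 655 in 46C-Ctrl. All 3 libraries labelled Zhx1-KO were below every 46C-Ctrl library, and the log2 fold change was -1.54 (SE 0.13, adjusted p = 5.3e-05 from limma). Cnn2 (chromosome 10, from 79988584 to 79996062, plus strand) had 3263, 3477 and 3526 in the libraries labelled Zhx1-KO and 7482, 7313 and 7874 in 46C-Ctrl. Its means were 3422 ± 140 and 7556 ± 288 (SD, n = 3 each), and its log2 fold change was -1.14 (SE 0.05, adjusted p = 2.7e-06 from limma). Log2 fold changes at or below -1 among called genes, the range of Tagln, Acta2, Cnn1, Cnn2 and Prdm6, were found for 7.85% of all genes tested.

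Myl9 and Cald1 did not pass the test. Myl9 encodes a regulatory light chain of smooth muscle and non-muscle myosin, whose phosphorylation starts contraction. It lies on chromosome 2, from 156775420 to 156781658 on the plus strand. Myl9 had 573, 596 and 591 normalized counts in the libraries labelled Zhx1-KO and 602, 575 and 601 in 46C-Ctrl. The groups overlapped, and the log2 fold change was -0.01 with a 95% interval from -0.16 to 0.13 (adjusted p = 0.868 from limma). Cald1 encodes caldesmon, an actin-binding regulator of contraction with a long smooth muscle form and a shorter non-muscle form. Values per gene do not separate these forms. The gene is on chromosome 6, from 34598500 to 34775473 on the plus strand, and had 4498, 4029 and 4536 normalized counts in the libraries labelled Zhx1-KO and 4552, 4364 and 4499 in 46C-Ctrl. Here too the groups overlapped, with a log2 fold change of -0.04 and a 95% interval from -0.17 to 0.09 (adjusted p = 0.588 from limma). Changes of the size seen in Tagln, Acta2, Cnn1 and Cnn2 lie outside both intervals.

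Smtn encodes smoothelin, a cytoskeletal protein of contractile smooth muscle. It had 1104, 1158 and 946 normalized counts in the libraries labelled Zhx1-KO and 764, 614 and 832 in 46C-Ctrl. The lowest library labelled Zhx1-KO was above the highest of 46C-Ctrl, and the log2 fold change was 0.54 (SE 0.13, adjusted p = 0.00796 from limma). Smtn lies on chromosome 11, from 3517523 to 3540612 on the minus strand, and the genes of this chromosome were shifted as a whole. The median log2 fold change of its 1187 tested genes was 0.42, with 675 of them called higher and 114 lower. Relative to that median the log2 fold change of Smtn was 0.12, with a 95% interval from -0.17 to 0.41 (adjusted p = 0.454 from limma), so its call did not hold within its chromosome. The exons of Smtn overlap 714 bases of Gm11946 on the other strand, which had at most 4.22 normalized counts in any library.

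**Figure D2:**
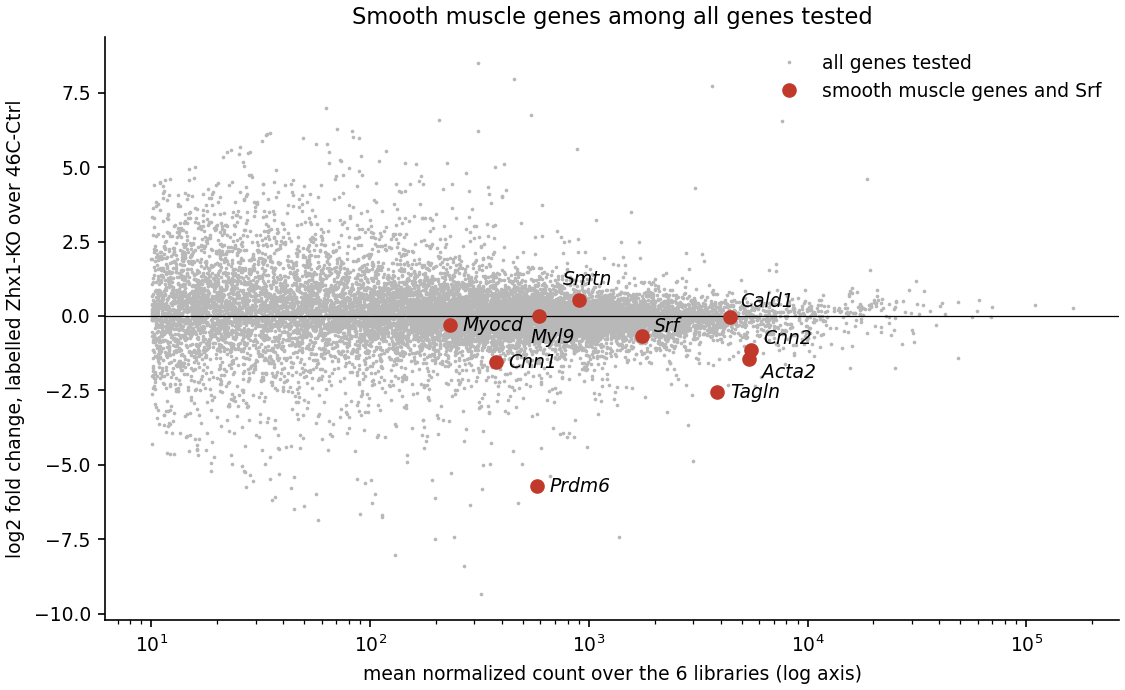
Log2 fold change (libraries labelled Zhx1-KO over 46C-Ctrl) against the mean normalized count over the 6 libraries (log axis) for all 15372 genes tested (grey), with the 9 tested smooth muscle genes and Srf in red. Prdm6, with a log2 fold change of -5.69, is among the lowest of all genes, and Tagln, at -2.54, lies below most genes of its level, while Myl9 and Cald1 lie on the line at 0.

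The promoters of these genes were searched for the CArG box, because it is the element through which SRF and the myocardin family act. The sequences shown are the 180 bases before the RefSeq start (GRCm38.p6) of Cnn2, which was lower, of Myl9, which did not pass the test, of Srf itself and of Acta2. The element was written as CC, then 6 bases that are each A or T, then GG, which reads the same on both strands. Capitals mark exact matches in Cnn2, Myl9 and Srf and matches with 1 mismatch in Acta2.
Cnn2 (chr10:79988420-79988599, plus strand): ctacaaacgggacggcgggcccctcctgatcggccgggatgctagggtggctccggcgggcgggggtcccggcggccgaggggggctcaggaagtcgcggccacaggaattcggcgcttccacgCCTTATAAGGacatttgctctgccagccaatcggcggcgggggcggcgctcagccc
Myl9 (chr2:156775284-156775463, plus strand): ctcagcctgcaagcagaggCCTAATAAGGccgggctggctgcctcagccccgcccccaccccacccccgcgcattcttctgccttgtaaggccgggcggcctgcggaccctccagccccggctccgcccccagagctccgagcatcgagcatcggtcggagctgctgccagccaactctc
Srf (chr17:46556163-46556342, minus strand): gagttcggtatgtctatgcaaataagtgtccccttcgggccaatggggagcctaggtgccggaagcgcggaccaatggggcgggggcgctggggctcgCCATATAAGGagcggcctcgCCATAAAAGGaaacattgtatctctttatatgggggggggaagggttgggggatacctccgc
Acta2 (chr19:34255374-34255553, minus strand): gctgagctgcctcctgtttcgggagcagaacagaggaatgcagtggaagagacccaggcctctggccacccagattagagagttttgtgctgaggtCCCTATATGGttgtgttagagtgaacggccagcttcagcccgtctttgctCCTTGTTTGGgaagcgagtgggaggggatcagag
The exact box of Cnn2 starts 56 bases before the start and that of Myl9 161 bases before it. The 2 boxes of Srf start 82 and 62 bases before the start. The 2 elements of Acta2 start 84 and 34 bases before the start. A further match with 1 mismatch, left in lower case, is in Myl9 (99 bases before the start) and in Srf (39 bases before it). RefSeq windows of 300 bases, from 250 before to 50 after a start, were matched for 6 of the 10 genes. The windows of Cnn1 and Smtn held no match with up to 1 mismatch, and 1 of the 2 windows of Cald1 held 1. An exact box was in 1.63% of all 32851 windows, and a match with up to 1 mismatch in 21.1%. A match is a string of letters and not a measured site. Cnn2, with a log2 fold change of -1.14, and Myl9, with -0.01, both held an exact box.

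Myocd, the coactivator of SRF, had low values in both groups. It lies on chromosome 11, from 65176561 to 65269989 on the minus strand. Myocd had 212, 215 and 192 normalized counts in the libraries labelled Zhx1-KO and 257, 274 and 237 in 46C-Ctrl. The groups did not overlap, but the gap between them was smaller than the range within either group. The means were 206 ± 12.6 and 256 ± 18.6 (SD, n = 3 each), with a log2 fold change of -0.31 (SE 0.11, adjusted p = 0.0391 from limma). This call was lost in 10 of 18 other settings, over which the adjusted p ran from 0.00109 to 1. It was 0.0585 in edgeR's quasi-likelihood test and 0.13 in DESeq2 on whole reads. In limma it was 0.104 without 46C-Ctrl 2, the library that stood apart, 0.0902 without 46C-Ctrl 1, and 0.0696, 0.0621 and 0.115 without the libraries 1, 2 and 3 labelled Zhx1-KO. Myocd shares chromosome 11 with Smtn, and relative to the chromosome's median its log2 fold change was -0.73 with a 95% interval from -0.99 to -0.48 (adjusted p = 0.00109 from limma). The value of Myocd against all genes and that against its own chromosome therefore differ in size, and both are below 0.

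**Figure D3:**
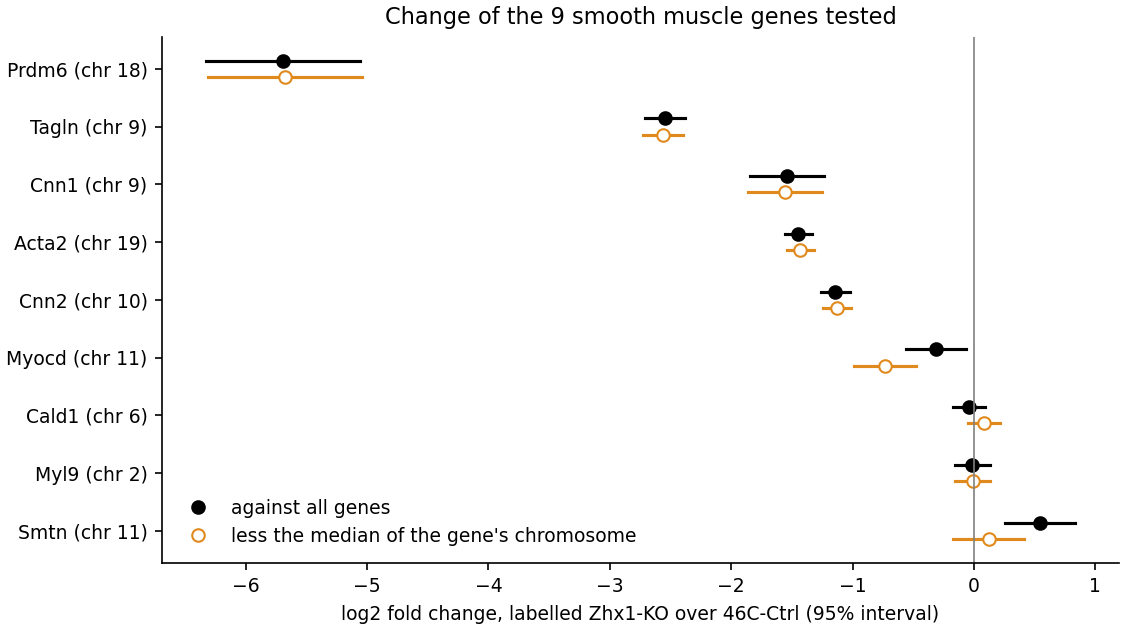
Log2 fold change (libraries labelled Zhx1-KO over 46C-Ctrl) of the 9 tested genes with 95% intervals, against all genes (black) and less the median of the gene's own chromosome (orange, open). The 2 values nearly coincide except for Smtn and Myocd, both on chromosome 11, where Smtn is at 0.54 and 0.12 and Myocd at -0.31 and -0.73, and for Cald1 at -0.04 and 0.08.

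Srf and the partners of myocardin were described beside it, from a list of 20 genes of which 18 were in the table and tested. Of these 18, 13 were lower and 3 higher, 2 did not pass, and the median log2 fold change was -0.42. Myocd itself is among the 13, and the list holds activators and repressors alike. Srf had 1295, 1465 and 1280 normalized counts in the libraries labelled Zhx1-KO and 2360, 1957 and 2132 in 46C-Ctrl. The groups did not overlap, and the log2 fold change was -0.67 (SE 0.09, adjusted p = 0.00041 from limma). Mrtfa and Mrtfb, the myocardin-related coactivators that respond to free actin, had log2 fold changes of -0.49 and -0.35 and both passed the test. The members with the smallest adjusted p were Csrp1 (log2 fold change -1.65), a LIM protein that bridges SRF and GATA factors, Foxo4 (-1.21), a factor that represses myocardin activity in smooth muscle cells, Fhl2 (-1.82), a LIM cofactor and target of SRF, and Tgfb1i1 (-2.21), a focal adhesion protein also called Hic-5. All 4 were lower. Mef2c, a partner factor of myocardin in muscle, averaged 226 ± 29.6 in the libraries labelled Zhx1-KO and 463 ± 35.2 in 46C-Ctrl (SD, n = 3 each), with a log2 fold change of -1.04 and an adjusted p of 0.00024 from limma. Elk3, a ternary complex factor that competes with myocardin for SRF, was higher, with a log2 fold change of 1.22.

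Genes that SRF is known to drive in most cell types, not only in muscle, were nearly all lower. Their list, like the others, was chosen with earlier results of these data known. Of 28 in the table, 26 passed the filter on low values, and of these 24 were lower and 0 higher in limma, also at an unadjusted p under 0.05, since none had a log2 fold change above 0. The count higher was 0 in edgeR and DESeq2 too. The 2 others did not pass, and the median log2 fold change was -1.06, against 0.01 over all genes tested. Those 2 were Actg1, a cytoplasmic actin, with a log2 fold change of -0.02, and Ankrd1 with -0.54, both with groups that overlapped. Actg1 lies on chromosome 11, where the median was 0.42. Tpm1, an α-tropomyosin of muscle and non-muscle cells, averaged 3887 ± 209 in the libraries labelled Zhx1-KO and 11960 ± 450 in 46C-Ctrl (SD, n = 3 each). Ccn1 and Ccn2, matricellular proteins induced by cell stretch, had log2 fold changes of -1.31 and -1.89. Wdr1, a cofactor of actin disassembly, had one of -1.32. The lists are not independent: this one shares Srf, Fhl2 and Tgfb1i1 with the list of SRF and its partners, Tpm1, Vcl and Tgfb1i1 with that of other smooth muscle genes, and Actb and Actg1 with the relatives of the 10 genes. Without 46C-Ctrl 2 the count of lower genes was also 24.

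Other contractile and membrane genes of smooth muscle moved in both directions. Of 30 tested, 15 were lower and 5 higher, 10 did not pass, and the median log2 fold change was -0.46. The smallest adjusted p values belonged to Csrp1, Tpm1, Pdlim3, an α-actinin-binding LIM protein (log2 fold change -2.61), and Hspb1, a small heat shock protein of the actin cytoskeleton (-2.85), all lower. Hspb1 had 248, 280 and 301 normalized counts in the libraries labelled Zhx1-KO and 2029, 1779 and 2187 in 46C-Ctrl. Des, which encodes the muscle intermediate filament protein desmin, went the other way, with 551, 581 and 589 against 343, 285 and 354 in 46C-Ctrl, a log2 fold change of 0.81 and an adjusted p of 0.000364 from limma. Mylk, the kinase that phosphorylates Myl9, was higher too, at 110 ± 21.0 against 31.5 ± 9.18 in 46C-Ctrl (SD, n = 3 each). Of 8 genes that define mature smooth muscle, Smtn and Des were higher, Cnn1 was lower and 5 did not pass, among them Myh11, the smooth muscle myosin heavy chain, with 27.2, 42.5 and 37.0 in the libraries labelled Zhx1-KO and 47.8, 41.4 and 0 in 46C-Ctrl. The summed normalized counts of these 8 genes ranged from 2082 to 2367 in the libraries labelled Zhx1-KO and from 1809 to 2159 in 46C-Ctrl, and none of them was at 0 in a whole group. The highest gene of this sum was Smtn, at 1069 ± 110 in the libraries labelled Zhx1-KO and 736.5 ± 111.6 in 46C-Ctrl (SD, n = 3 each). Smtn lies on chromosome 11, and its call did not hold relative to that chromosome's median.

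Levels of different genes were compared per kb of exon, with all annotated exons of a gene merged. This length can exceed that of any transcript, so the order of genes depends in part on this choice. For Cald1 it was 12041 bases, while its longest coding transcript has 4777. The normalized counts per kb of the 10 genes summed to 4405, 4581 and 4521 in the libraries labelled Zhx1-KO and to 11630, 11230 and 12030 in 46C-Ctrl. In the libraries labelled Zhx1-KO the order per kb ran from Cnn2 (1391 ± 56.7) and Acta2 (1323 ± 61.3) over Tagln (569 ± 43.8), Myl9 (505 ± 10), Cald1 (362 ± 23.5), Smtn (244 ± 25.1), Cnn1 (69.7 ± 6.73) and Myocd (32.1 ± 1.97) to Prdm6 (6.34 ± 2.55). Only the values of the neighbours Cnn2 and Acta2 overlapped. In 46C-Ctrl it ran from Acta2 (3610 ± 31.0), Tagln (3319 ± 180) and Cnn2 (3072 ± 117) over Myl9 (510 ± 13.4), Cald1 (371 ± 8.08), Prdm6 (326 ± 25.6), Cnn1 (204 ± 30.6) and Smtn (168 ± 25.5) to Myocd (39.9 ± 2.89). There the values of the neighbours Tagln and Cnn2 overlapped, and those of Cnn1 and Smtn (mean ± SD, n = 3 for each value). Actg2 was last in both groups. Prdm6 stood above Myocd in 46C-Ctrl and below it in the libraries labelled Zhx1-KO.

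The paralogs of these genes did not move with them in equal measure. Of 14 close relatives tested, 8 were lower and 3 higher, 3 did not pass, and the median log2 fold change was -0.37. Actc1, the cardiac α-actin, had 2385, 2499 and 2000 normalized counts in the libraries labelled Zhx1-KO and 577, 560 and 579 in 46C-Ctrl, with a log2 fold change of 1.995 (SE 0.09, adjusted p = 2.37e-06 from limma). Acta2 and Actc1 thus moved in opposite directions. Per kb, Acta2 made up 44.6%, 44.7% and 47.7% of the 4 muscle actins in the libraries labelled Zhx1-KO and 84.6%, 84.9% and 84.0% in 46C-Ctrl, and Actc1 made up 49.3%, 50.01% and 46.9% against 8.28%, 8.20% and 8.33%. These shares are ratios within a library and do not depend on its scaling, but they do depend on the merged exon lengths. Actb, a cytoplasmic actin, had a log2 fold change of -0.94, while Actg1, the other cytoplasmic actin, did not pass against all genes. Actg1 lies on chromosome 11, whose tested genes had a median log2 fold change of 0.42.

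Tagln made up 25.9%, 26.5% and 28.1% of the transgelins per kb in the libraries labelled Zhx1-KO and 60.1%, 59.5% and 60.9% in 46C-Ctrl. Its paralog Tagln2, expressed in many cell types, had a log2 fold change of -0.54, and Tagln3, the paralog of neurons, had one of 1.15 at a low level. Among the calponins, Cnn3 made up 59.0%, 58.2% and 58.6% per kb in the libraries labelled Zhx1-KO, against 45.3%, 45.1% and 45.2% in 46C-Ctrl. Cnn1 was a minor calponin in all 6 libraries, at 1.84% to 2.07% in those labelled Zhx1-KO and 3.17% to 3.81% in 46C-Ctrl. Myl9, whose own value barely differed, had a larger share of the regulatory light chains, with 36.8%, 36.6% and 37.6% against 27.5%, 27.9% and 26.1% in 46C-Ctrl. Its ubiquitous relative Myl12a had a log2 fold change of -0.92. Myl6, the essential light chain of smooth muscle and non-muscle myosin, had one of -1.45.

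**Figure D4:**
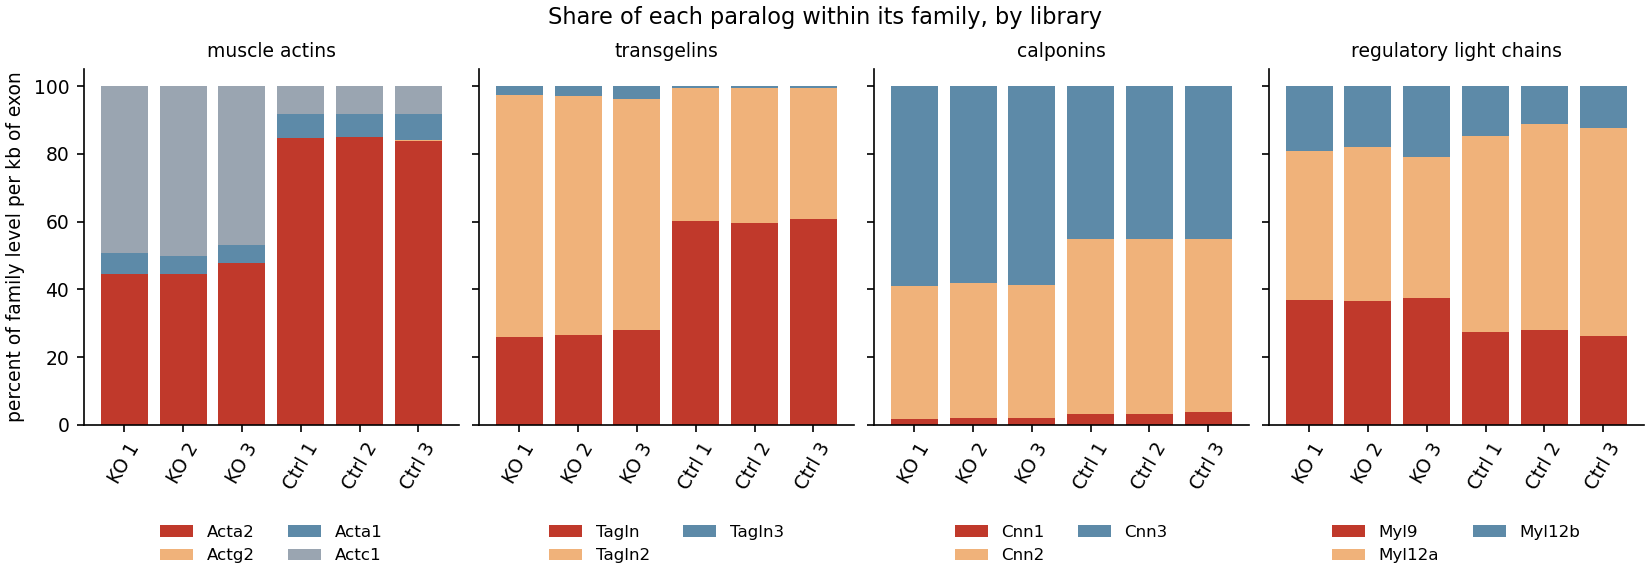
Share of each paralog in its family's summed level per kb of exon, in percent, for the muscle actins, transgelins, calponins and regulatory light chains in each library (libraries labelled Zhx1-KO left of 46C-Ctrl). Acta2 takes 44.6% to 47.7% of the muscle actins in the libraries labelled Zhx1-KO and 84.0% to 84.9% in 46C-Ctrl, and Tagln, Cnn1 and Cnn2 also take smaller shares there, while the share of Myl9 is larger.

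Prdm6 had the lowest log2 fold change of the 10 genes. It lies on chromosome 18, from 53463583 to 53575907 on the plus strand. Prdm6 had 13.1, 22.2 and 30.8 normalized counts in the libraries labelled Zhx1-KO and 1169, 1031 and 1197 in 46C-Ctrl. As reads these were 13, 22 and 35 in the libraries labelled Zhx1-KO and 1199, 996 and 1135 in 46C-Ctrl, 70 and 3330 in all. The gene was present in every library, and the groups were far apart. The means were 22.1 ± 8.85 and 1132 ± 88.9 (SD, n = 3 each), 51.4-fold lower in the libraries labelled Zhx1-KO, with a log2 fold change of -5.69 (SE 0.27, adjusted p = 3.69e-06 from limma). Among the 15372 genes tested it ranked 24 from the lowest, and called log2 fold changes at or below -5 were found for 0.260% of all genes tested. Without 46C-Ctrl 2 it was -5.76. None of the 2582 stretches of 50 bases in the Prdm6 transcript occurred in a transcript of another gene.

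The other PRDM genes, which encode zinc finger proteins with a PR domain, act in many lineages. Of 14 in the table, 11 were tested, and 5 of these were lower, 1 was higher and the other 5 did not pass (median log2 fold change -0.37). Prdm1, a repressor that governs several embryonic and immune cell fates, had 168, 172 and 172 normalized counts in the libraries labelled Zhx1-KO and 353, 295 and 346 in 46C-Ctrl (log2 fold change -0.95, adjusted p = 0.000219 from limma). Prdm16, a regulator of brown fat that is also expressed in the heart, had 0, 0 and 3.52 normalized counts in the libraries labelled Zhx1-KO and 37.1, 25.9 and 20.04 in 46C-Ctrl. Prdm8 had a log2 fold change of -1.73 and Prdm2 one of -0.37. The interval of Prdm16, from -5.75 to -2.39, overlapped that of Prdm6, from -6.33 to -5.06, and the difference between them was not tested.

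Patterns most like those of Myocd and Prdm6 were looked up over the 6 libraries, as Pearson's r of log2(normalized count + 1), given as a description. All 6 points share the split between the groups, so any gene with a large difference between groups and little spread scores high. For Prdm6, 2003 genes had an r over 0.95, and the highest were Ctsc, a lysosomal protease (r = 0.999), Cemip2, a cell surface hyaluronidase (0.999), and Plekhf2, an endosomal protein (0.999). Ctsc had 53.4, 69.8 and 88.0 normalized counts in the libraries labelled Zhx1-KO and 548, 540 and 632 in 46C-Ctrl. For Myocd 118 genes had an r over 0.95, led by Faxc (0.997), Hba-a2, an adult α-globin (0.996), and Homer3, a scaffold protein (0.994). Faxc, with 198, 196 and 173 against 253, 272 and 223 in 46C-Ctrl, followed the level as well as the pattern of Myocd.

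Some markers of other cell types that can express these genes moved as well. Among 7 tested markers of pericytes and mural cells, 3 were lower and 2 were higher, and their summed normalized counts ranged from 4609 to 5136 in the libraries labelled Zhx1-KO and from 8882 to 10090 in 46C-Ctrl. The highest gene of this sum was Notch3, the Notch receptor of mural cells, at 2900 ± 209 and 6687 ± 509 (SD, n = 3 each, log2 fold change -1.21). Rgs5, a regulator of G protein signalling in pericytes, was lower too (-2.90), as was the proteoglycan gene Cspg4 (-3.53). Vtn (2.11), on chromosome 11, and Pdgfrb (0.22, adjusted p = 0.046 from limma) were higher. Mcam did not pass, at 590 ± 114 in the libraries labelled Zhx1-KO and 564 ± 107 in 46C-Ctrl, and neither did Anpep. Cspg4 had 0, 0 and 7.04 normalized counts in the libraries labelled Zhx1-KO and 20.5, 16.6 and 31.6 in 46C-Ctrl. Of the 13 fibroblast and myofibroblast markers tested, 7 were higher and 4 lower (median log2 fold change 0.55). Their sum, from 24210 to 26110 in the libraries labelled Zhx1-KO and from 52880 to 59700 in 46C-Ctrl, had Fn1, the gene for fibronectin, as its highest gene, at 11440 ± 424 in the libraries labelled Zhx1-KO and 38720 ± 3500 in 46C-Ctrl (SD, n = 3 each, log2 fold change -1.76). Col3a1 (-1.69), Vim (-1.11) and Ckap4 (-0.555) were lower with it. Lum (3.79), a proteoglycan of collagen matrix, was higher. So were Thy1 (1.995), Tcf21 (1.37), Postn (0.87), Col1a2 (0.855), Col1a1 (0.79, on chromosome 11) and Pdgfra (0.38).

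Of 15 tested markers of early cardiomyocytes, 8 were higher and 5 lower, with a median log2 fold change of 0.42, and their sums ranged from 12910 to 14450 in the libraries labelled Zhx1-KO and from 10420 to 11030 in 46C-Ctrl. Actc1, in this list too, and the atrial light chain gene Myl7 (log2 fold change 1.17) were higher, while Tnni1 (-2.02) and Tnnc1 (-1.40), of the thin filament, were lower. Myl7 lies on chromosome 11, whose tested genes had a median log2 fold change of 0.42. So does Myl4 (0.417), the gene at the median of this list. No gene list was counted relative to the chromosome medians. Markers of skeletal muscle were low, with sums from 301 to 383 in the libraries labelled Zhx1-KO and from 531 to 598 in 46C-Ctrl. Of the 4 tested, Acta1 was lower (-0.89) and Pax3 higher (2.36), while Pax7 (0.59) and Tnnt3 (-2.74) did not pass. None of the 6 cell type lists other than skeletal muscle held a gene at 0 in a whole group, and in skeletal muscle this was 1 gene, in 46C-Ctrl. The part of these cell types in the values of the smooth muscle genes was not tested. The cardiac progenitor markers with the smallest adjusted p were Hand1 (-4.87), Gata4 (-4.07), Hand2 (-2.52) and Mesp1 (-4.14).

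**Figure D5:**
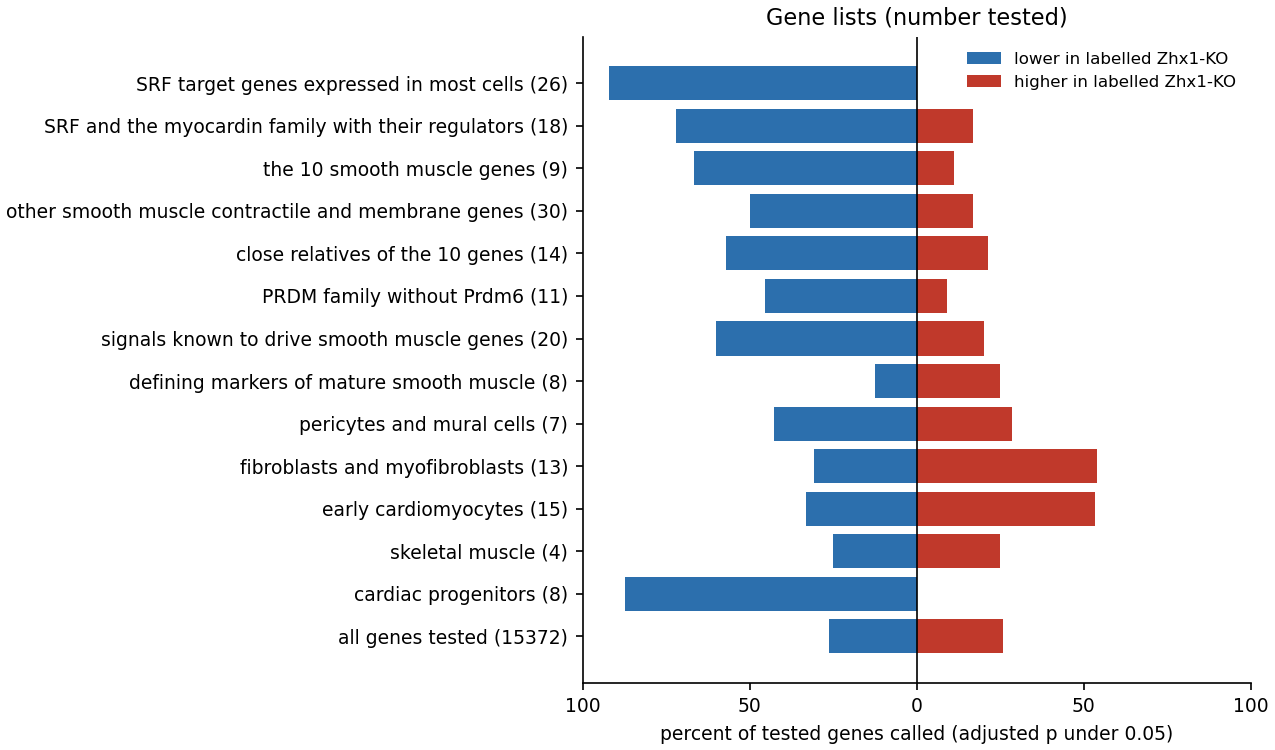
Percent of each list's tested genes called lower (blue, left of 0) or higher (red, right of 0) in the libraries labelled Zhx1-KO, with the number tested in brackets and all genes tested at the bottom. Of the SRF target genes 24 of 26 were lower and of the 9 tested smooth muscle genes 6 were lower, beside 26.4% of all genes, and the fibroblast and early cardiomyocyte lists have more genes higher than lower. The lists were chosen with earlier results of these data known.

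The calls of Tagln, Acta2, Cnn1, Cnn2 and Prdm6 held in all 18 other settings, and Myl9 and Cald1 passed in none of them. Without 46C-Ctrl 2 the log2 fold changes were -2.58 for Tagln, -1.45 for Acta2, -1.62 for Cnn1, -1.17 for Cnn2 and 0.42 for Smtn, all of which passed (adjusted p from 2.72e-06 to 0.0115 in limma), and -0.26 for Myocd, which did not.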

How the data were processed

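PolyA RNA was sequenced from 3 libraries labelled Zhx1-KO and 3 of 46C-Ctrl. The authors used cutadapt 1.18 for trimming, HISAT2 2.1.0 for mapping to GRCm38 (GENCODE M19) and StringTie 1.3.4d for quantification. The submitters' processing notes add Cufflinks and DESeq2. The program behind the counts was not given in the sources used here. The deposited values are a signal, whole reads per gene scaled by the authors with a single factor for each library: 100% are whole multiples of 1 step per library (within 0.01 of a step), from 0.880 to 1.05. Dividing by the step gave whole reads, 13769967 to 15940874 per library.

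Genes with a mean of at least 10 (15372 of 25701) were compared between groups on log2(value + 1) by limma-trend (limma 3.58.1, R 4.3.3), with no covariate and p-values adjusted by Benjamini-Hochberg over these genes. Alternatives changed the pseudocount, filter, normalization, trend, null fold (treat), replicate block and libraries, took each gene relative to its chromosome, and ran edgeR 4.0.16 and DESeq2 1.42.0 on whole reads. The procedure was tested on simulated data. Positions, exon lengths and transcripts are from GENCODE M21 (GRCm38), and promoters from RefSeq (GRCm38.p6).

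The 10 genes and the 12 lists were chosen with earlier results of these data known. Named beside the 10 genes were the up to 4 tested genes of each list with the smallest adjusted p, Des, Mef2c and Srf, and the 3 genes most like Myocd and Prdm6. Mrtfa, Mrtfb, Elk3, Vcl, Mylk, Myh11, Ankrd1, Actg1, Tagln2, Tagln3, Cnn3, Notch1, Ednra and the overlapping genes were named after their values were seen. The same holds for Pdgfrb, Mcam, Anpep, Myl4, Ckap4, Thy1, Tcf21, Postn, Col1a1, Col1a2 and Pdgfra.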

Additional observations from a re-analysis of the deposited data

How the results depend on the processing

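Tagln, Acta2, Cnn1, Cnn2 and Prdm6 kept their direction and call in all 18 other settings, and no result reversed. Smtn lost its call relative to its chromosome's median (adjusted p = 0.454) and against a 1.5-fold change in limma's treat (adjusted p = 1), so 0 smooth muscle genes were called higher there. Myocd lost its call in 10 settings. Among them were no filter (adjusted p = 0.0596), edgeR (0.0585), DESeq2 (0.13) and each left-out library except 46C-Ctrl 3, with 5 to 6 smooth muscle genes called lower over the left-out libraries. The replicate numbers did not pair the libraries: the correlations of the deviations of same-numbered libraries were 0.004, -0.07 and 0.001. With the replicate block Myocd had an adjusted p of 0.0576, 1 pericyte marker was higher, and 3625 genes were higher and 3749 lower, against 3940 and 4058 without it. Treat, by construction a stricter test, left 6 genes of the SRF and myocardin list lower, 2 other smooth muscle genes higher, 3 relatives lower, 0 PRDM genes higher and 2 lower, 2 signals higher and 3 lower, 1 pericyte marker higher, 3 fibroblast markers higher, 4 cardiomyocyte markers higher and 2 lower, 0 skeletal muscle markers lower and 0 mature smooth muscle markers higher. It called 1090 genes higher and 1055 lower. With a mean of at least 50, 3 PRDM genes were lower and 0 skeletal muscle markers higher. Pericyte markers called higher were 1 with no filter, without the trend and in DESeq2, and 1 to 2 over the left-out libraries. Skeletal muscle markers were 2 higher without the trend, and 2 lower with a pseudocount of 5 and in DESeq2, and 1 to 2 lower over the left-out libraries. Mature smooth muscle markers lower were 2 after quantile normalization and without the trend, and 1 to 2 over the left-out libraries. Of the SRF targets 0 to 1 were higher over the left-out libraries. The causes were not tested. Low values limit Actg2, Prdm16 and Cspg4, and Prdm6 rests on 70 reads in the libraries labelled Zhx1-KO.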

Other observations

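Signals known to drive smooth muscle genes moved in both directions. Of 20 tested, 12 were lower and 4 higher in limma, the other 4 did not pass, the median log2 fold change was -0.17, and without 46C-Ctrl 2 the counts were 8 lower and 3 higher. Bmp4, a ligand that induces mesoderm and cardiac fates, had 287, 285 and 328 normalized counts in the libraries labelled Zhx1-KO and 1280, 1212 and 1456 in 46C-Ctrl, with a log2 fold change of -2.13 (adjusted p = 2.61e-06 from limma). Edn1, the endothelin ligand, averaged 21.3 ± 2.57 against 133 ± 15.5 in 46C-Ctrl (SD, n = 3 each, log2 fold change -2.59), whereas Ednra, its receptor on smooth muscle and mesenchymal cells, averaged 550 ± 61.1 against 139 ± 27.9 (log2 fold change 1.99). Ligand and receptor thus moved in opposite directions. Notch3 was lower with a log2 fold change of -1.21, and Notch1, the Notch receptor of endothelium and many progenitors, was higher with 1.03. Tgfb2, a ligand that acts in heart and vessel development, had a log2 fold change of -0.62 (adjusted p = 2.81e-05 from limma).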
